A study of Mus musculus with 18 samples.

Results

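The genes described here mark the stem cells at the base of the intestinal crypt or respond there to Wnt signalling, and they were followed in the ileum of C57BL/6 mice, an inbred strain, from the first postnatal week to after weaning. They were Lgr5, Tnfrsf19, Axin2, Olfm4, Cdca7, Ascl2, Sox9, Ephb2 and Ephb3, 9 genes in all. Each was read from the probe set annotated to that gene alone with the highest mean over all arrays. 8 of the 9 were among the 18193 genes with such a probe set, and Ephb2 was not analysed here. 5 of the 8 (Lgr5, Tnfrsf19, Axin2, Olfm4 and Cdca7) reached a log2 level of 6 on at least 3 arrays and were among the 8630 genes tested, whereas Ascl2 reached it on 2 arrays and Sox9 and Ephb3 on 0.

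RNA was taken from untreated mice, as far as the labels say, on postnatal days 4, 7, 9, 11, 24 and 32, with 3 individual mice at each age and 18 Affymetrix arrays in all. The pieces held every layer of the gut wall, so crypt cells gave only a share of the RNA, and fewer crypt cells and less RNA per crypt cell cannot be told apart. Days 4 to 11 (12 arrays) are called here before weaning and days 24 and 32 (6 arrays) after weaning; where weaning falls is background on laboratory mice and not in the labels. The labels give no sex, litter or batch. Levels are log2 values, so a difference of 1 is a doubling.

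The intestinal epithelium is renewed from stem cells that sit between Paneth cells in the crypts. Wnt proteins bind Frizzled and Lrp receptors and stabilise beta-catenin, which acts with Tcf and Lef factors on target genes; R-spondins, through Lgr4 and Lgr5, keep the receptors at the surface. In the mouse, crypts take shape and Paneth cells appear in the weeks after birth, and the diet changes from milk to chow at weaning.

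The gene starts of 3 members are shown because their levels moved apart around weaning: Axin2 and Olfm4 higher, and Tnfrsf19 lower. Each sequence holds the 250 bases before the start in RefSeq's annotation of the GRCm38.p6 assembly, 5′ to 3′ on the gene's own strand. The Axin2 bases lie at chr11:108920099-108920348 (plus strand), the Olfm4 bases at chr14:80000052-80000301 (plus strand) and the Tnfrsf19 bases at chr14:61037988-61038237 (minus strand), one of a pair of starts listed for that gene. Capitals mark a match to a core sequence of Tcf and Lef factors.
Axin2: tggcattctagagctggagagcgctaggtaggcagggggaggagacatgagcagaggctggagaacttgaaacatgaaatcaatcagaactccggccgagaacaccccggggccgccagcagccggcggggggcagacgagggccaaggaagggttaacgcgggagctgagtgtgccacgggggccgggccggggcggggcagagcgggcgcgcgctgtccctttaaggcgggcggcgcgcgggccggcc
Olfm4: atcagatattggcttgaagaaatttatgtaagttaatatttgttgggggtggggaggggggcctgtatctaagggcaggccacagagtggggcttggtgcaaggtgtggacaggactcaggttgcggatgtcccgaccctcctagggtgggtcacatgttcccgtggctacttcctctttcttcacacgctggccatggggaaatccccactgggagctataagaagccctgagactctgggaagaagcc
Tnfrsf19: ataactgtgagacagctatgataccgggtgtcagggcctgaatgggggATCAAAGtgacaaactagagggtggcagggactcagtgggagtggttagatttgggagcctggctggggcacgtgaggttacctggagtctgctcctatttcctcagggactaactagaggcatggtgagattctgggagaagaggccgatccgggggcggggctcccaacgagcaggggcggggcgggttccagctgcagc
Core letters were searched on both strands, in windows from 250 bases before to 50 bases after the start. Of the 32851 such windows in the table, CTTTGAT was in 3.73%, CTTTGAA in 5.14% and CTTTGTT in 5.85%, and 13.9% held any of the 3. Of the 8 windows of members, which covered 7 genes because Lgr5 and Sox9 were not in the table, the Tnfrsf19 window shown was the 1 with a match, ATCAAAG with its first base at position -202 from the start. A match is a description of the letters and not evidence of binding.

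Array quality moved with age and is given before the results. Across ages, array medians lay between 3.88 and 3.97, and arrays of the same age correlated at 0.983 to 0.996. The spiked hybridization controls fell into 2 sets, 10 arrays at 9.56 to 9.99 and 8 at 8.74 to 9.05. All 6 arrays after weaning were in the higher set, with 4 from before weaning (day 4 replicates 1 and 2, day 7 replicate 3 and day 11 replicate 1). Control probe sets for poly-A spikes were at 3.68 to 4.76 before and 5.30 to 6.86 after weaning, and those for 18S ribosomal RNA at 4.93 to 8.19 and 7.01 to 10.85. The level of Xist, an X-linked RNA of females, was low on 3 of the 12 earlier arrays and 5 of the 6 later ones. On day 24 replicate 3 the 3′ minus 5′ difference of the Actb control probe sets was 1.40, against 0.353 to 0.797 on the other 17 arrays, and that of Gapdh was 0.92, the highest of the 18. This array had the lowest day 24 level of Lgr5, Tnfrsf19, Axin2, Olfm4 and Cdca7. Without it the calls of Axin2, Olfm4 (0.76), Cdca7 (0.34) and Tnfrsf19 (-0.45) after against before weaning, described in the results on each gene, were kept. The part of these measures in the results was not tested, except where values within the higher set or with the sets as a block are given.

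Markers of several other cell types in the tissue also moved. Beside all counts after weaning given here, 31.1% of all genes tested were called higher and 41.8% lower. Of 12 epithelial markers tested, 7 rose and 3 fell after weaning, and their mean level went from 10.45 to 10.65 before to 10.89 to 11.17 after. Of 10 fibroblast and mesenchyme markers tested, 10 fell, from 9.15 to 9.56 down to 8.11 to 8.71. Paneth cell markers were at 6.56 to 7.47 before and 9.69 to 9.99 after weaning, with 6 of 7 tested higher, and proliferation markers at 7.20 to 7.75 and 7.66 to 8.04, with 10 of 18 higher and 2 lower. Goblet cell markers were higher after weaning for 8 of 8 tested (8.26 to 8.54 before, 10.14 to 11.28 after) and adipocyte markers for 3 of 3 (3.28 to 5.83 before, 6.54 to 7.95 after). Lower were 3 of 3 endothelial markers (5.78 to 6.18, then 4.71 to 4.97), 4 of 4 of enteric neurons and glia (5.39 to 5.68, then 4.69 to 4.97) and 2 of 2 of hepatocytes (5.97 to 6.44, then 3.79 to 4.36). Smooth muscle markers moved little, with 2 of 7 tested higher, 1 lower and a median difference of 0.05 after weaning. Enteroendocrine markers (1 higher and 3 lower of 7) and immune cell markers (1 higher and 2 lower of 4) went both ways. Between days 4 and 11, 2 of the 3 adipocyte markers were already higher and both hepatocyte markers lower, beside 2.89% of all genes called. Of the 7 Paneth cell markers 2 were also higher, the list going from 6.57 to 6.72 at day 4 to 7.20 to 7.47 at day 11. Called lower were 1 of 18 proliferation markers (list at 7.64 to 7.72, then 7.20 to 7.49), 1 of 3 endothelial and 1 of 2 pancreatic acinar markers. 0 of the epithelial, fibroblast, Paneth and goblet markers were at or below the array medians on every array. The part of these cell types in the members' differences was not tested.

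**Figure D1:**
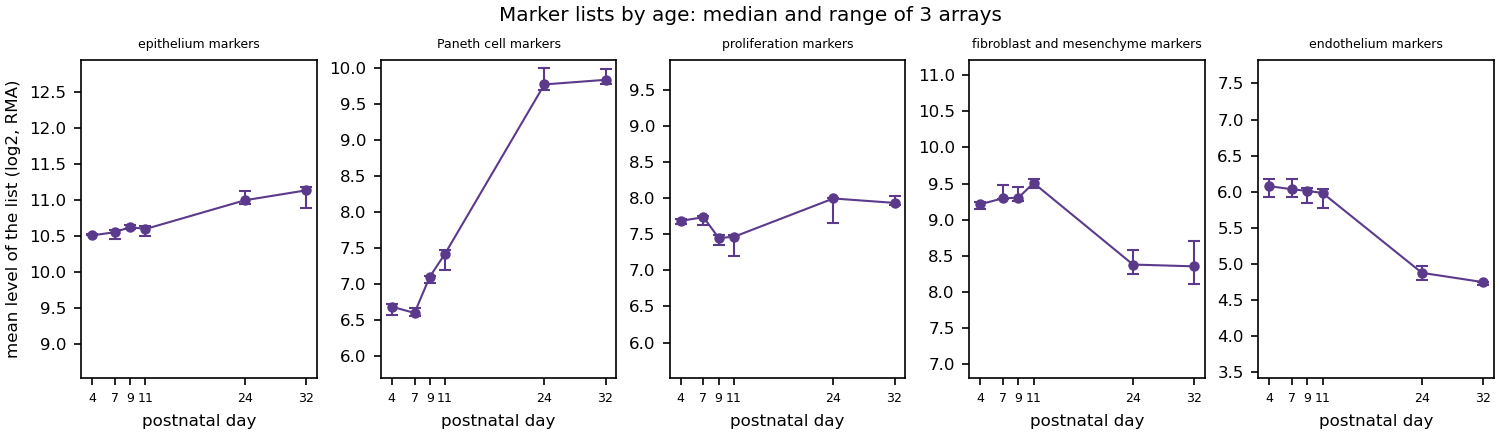
Mean log2 level (RMA values) of the probe sets in each of 5 marker lists, one panel per list, against postnatal day. Points are medians and bars the range of 3 arrays at each age. Paneth markers go from at most 7.47 up to day 11 to at least 9.69 from day 24, and fibroblast markers from at least 9.15 to at most 8.71.

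Age moved most of the members that could be tested. In an F test over the 6 ages, 4 of the 5 passed (limma, Benjamini-Hochberg adjusted p below 0.05), beside 68.3% of all genes tested, so this share is near that of any expressed gene. The adjusted p was 3.32e-06 for Axin2, 0.000105 for Olfm4, 0.000307 for Tnfrsf19, 0.00285 for Lgr5 and 0.182 for Cdca7. The members did not follow a common course. Lgr5 and Tnfrsf19 peaked at day 11 and were below that peak at days 24 and 32, whereas Axin2 and Olfm4 had their highest means at days 24 and 32. Against the mean of all ages before weaning, Tnfrsf19 was called lower (-0.49) and Lgr5 was not called (-0.18, limma, adjusted p = 0.237).

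**Figure D2:**
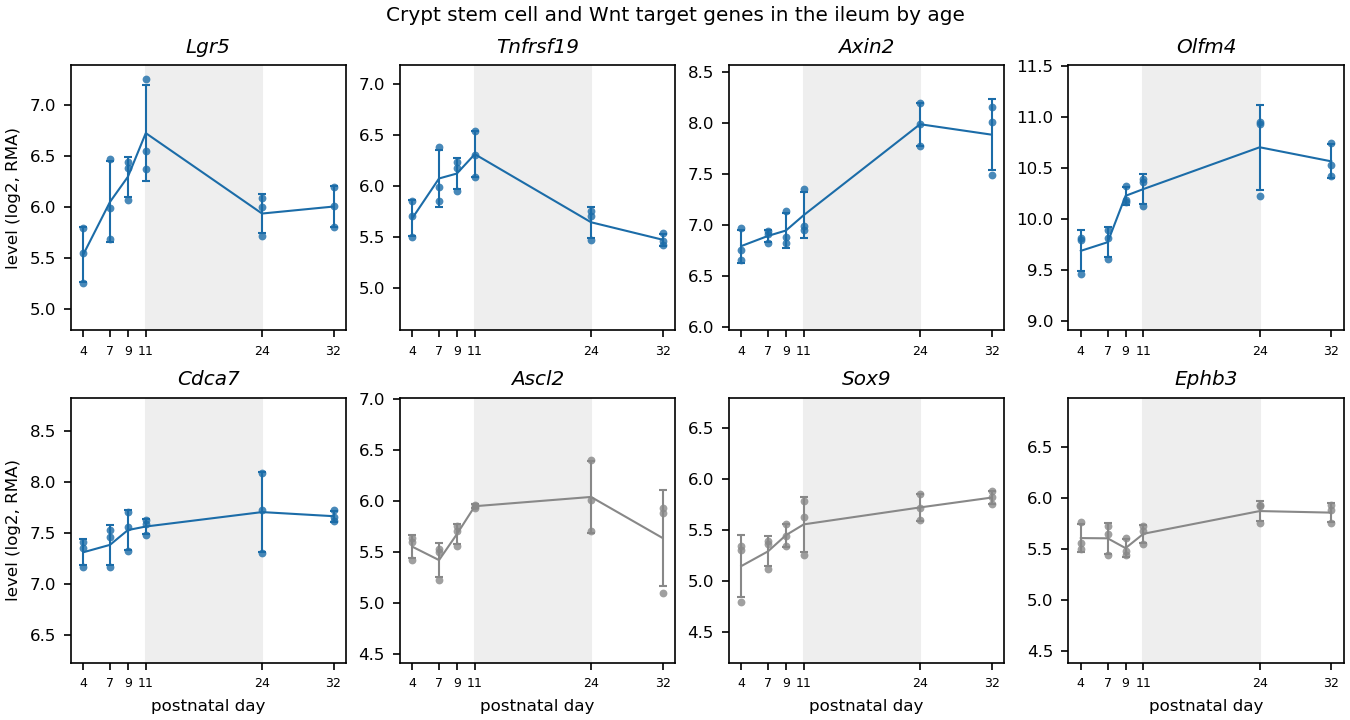
Log2 level (RMA) of each of 8 members against postnatal day, with every array as a point and the mean ± SD (n = 3 mice) as a line with bars. The y axes share a span but not an origin; grey marks the 3 genes below the level filter, and the shaded band runs from day 11 to day 24. Lgr5 rises from a mean of 5.53 to 6.72 by day 11 and is 5.93 at day 24, while Axin2 goes from 7.10 to 7.99 over that same interval.

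Lgr5 encodes the R-spondin receptor that defines cycling crypt stem cells. Its level was 5.80, 5.25 and 5.54 in the mice of day 4, 5.99, 5.68 and 6.47 at day 7, and 6.07, 6.43 and 6.38 at day 9. At day 11 it was 7.25, 6.55 and 6.37, at day 24 6.09, 5.99 and 5.72, and at day 32 5.80, 6.20 and 6.01. All 3 mice of day 11 were above all 3 of day 4 and above all 6 after weaning. Of all genes tested, 21.1% had no overlap between days 4 and 11 and 59.7% none between days 11 and 24. The difference from day 4 to day 11 was 1.19 ± 0.22 (SE), or 2.29-fold (limma, adjusted p = 0.00638). Lgr5 then fell by 0.79 ± 0.22 from day 11 to day 24, or 1.73-fold (adjusted p = 0.00518), and the step from day 24 to day 32 was 0.07 ± 0.22 (adjusted p = 0.867). The difference was -0.52 without day 11 replicate 1, still called, and -1.23 on values centred on the 12 epithelial markers of each array. Such centring shifts every gene on an array by the same amount, so it lowers all differences across weaning alike.

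Ordered by mean, Lgr5 ran from day 4 (5.53 ± 0.27, SD) through days 24 (5.93 ± 0.19), 32 (6.00 ± 0.20), 7 (6.05 ± 0.40) and 9 (6.29 ± 0.20) to day 11 (6.72 ± 0.47). No neighbours in that order passed the test, their adjusted p running from 0.131 to 1. Against the mean of all 4 ages before weaning, the mean after weaning was -0.18 ± 0.14 apart (adjusted p = 0.237), since the peak at day 11 and the low level at day 4 fall on the same side of that comparison. With the hybridization sets as a block this difference became -0.50 (limma, adjusted p = 0.00934). Within the higher set alone, 6 arrays against 4, it was -0.23 and not called. With epithelial marker centring it was -0.66 (adjusted p = 0.000319), on a scale where 6342 of 8630 genes were called lower. Day 11 replicate 1 had both the highest Lgr5 level and the highest 18S signal before weaning, 8.19. Without it the rise from day 4 to day 11 was 0.93, the lowest value on leaving out any array, and still called. Day 11 and day 4 differed by 1.73 among arrays of the higher set (1 against 2) and by 0.91 among those of the lower (2 against 1). In a fit of only the 6 arrays of days 4 and 11, the same difference had an adjusted p of 0.0718.

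Tnfrsf19, also called Troy, is a receptor of the tumour necrosis factor family, a Wnt target and a marker of the same stem cells. The mice of day 4 had levels of 5.50, 5.70 and 5.85, those of day 7 5.85, 5.99 and 6.39, and those of day 9 5.95, 6.24 and 6.18. Levels at day 11 were 6.31, 6.09 and 6.54, at day 24 5.75, 5.71 and 5.47, and at day 32 5.46, 5.42 and 5.54. Day 11 lay wholly above day 4 and above both ages after weaning. Such a lack of overlap held for 21.1% of all genes tested between days 4 and 11 and 59.7% between days 11 and 24. The rise from day 4 to day 11 was 0.63 ± 0.15, or 1.55-fold (limma, adjusted p = 0.0270). Tnfrsf19 then fell by 0.67 ± 0.15, or 1.59-fold, to day 24 (adjusted p = 0.000807). After weaning the level was -0.49 ± 0.09 from that before, or 1.40-fold lower (adjusted p = 9.30e-05), with some overlap because day 4 was as low as day 24. Within the higher hybridization set alone it was -0.41 and missed the threshold (adjusted p = 0.0534). Epithelial marker centring gave -0.97 after weaning and -1.11 from day 11 to day 24, both called, and 0.56 for the early rise, not called (adjusted p = 0.0754).

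The early rise of Tnfrsf19 was not held by every set of arrays. It missed the threshold without day 4 replicate 1 (0.54), day 4 replicate 2 (0.64), day 11 replicate 1 (0.63) or day 11 replicate 3 (0.52), with adjusted p between 0.0682 and 0.0914. By mean the order was day 32 (5.47 ± 0.06), day 24 (5.65 ± 0.15), day 4 (5.68 ± 0.18), day 7 (6.08 ± 0.28), day 9 (6.12 ± 0.15) and day 11 (6.31 ± 0.22), and no neighbours in it passed the test. Fibroblast and mesenchyme markers were at 9.15 to 9.25 on day 4, 9.44 to 9.56 on day 11 and 8.25 to 8.58 on day 24. These markers too had their highest median at day 11. Their arrays of day 24 and of day 32 (8.11 to 8.71) lay wholly below day 4. Tnfrsf19 was 0.04 lower at day 24 than at day 4 (limma, adjusted p = 0.842), and its mean was 5.47 at day 32 against 5.68 at day 4. Whether Tnfrsf19 RNA came from crypts or from stroma was not tested.

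Axin2 encodes a scaffold of the complex that degrades beta-catenin and is itself a Wnt target that acts as a feedback inhibitor. Before weaning its level moved little, with 6.97, 6.66 and 6.76 at day 4, 6.83, 6.95 and 6.92 at day 7, 6.88, 6.82 and 7.14 at day 9 and 7.35, 6.95 and 6.99 at day 11. After weaning it was 7.997, 8.20 and 7.78 at day 24 and 7.49, 8.01 and 8.16 at day 32. Every mouse after weaning was above every mouse before it. 37.2% of all genes tested likewise had no overlap between these groups. The difference was 1.01 ± 0.10, or 2.01-fold (limma, adjusted p = 4.86e-08), and 0.94 to 1.10 on leaving out any array. It was 0.97 within the higher hybridization set alone, 6 arrays against 4, where Axin2 also passed. With epithelial marker centring it was 0.53 (adjusted p = 3.30e-05).

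For Axin2 the step from day 11 to day 24 was 0.89 ± 0.16, or 1.86-fold (adjusted p = 0.000146), and that from day 4 to day 11 was 0.30 ± 0.16 (adjusted p = 0.327). Epithelial marker centring reduced the former to 0.45 (adjusted p = 0.0122). The ages ordered as day 4 (6.80 ± 0.16), 7 (6.90 ± 0.06), 9 (6.95 ± 0.17), 11 (7.10 ± 0.22), 32 (7.89 ± 0.35) and 24 (7.99 ± 0.21). In that order only the neighbours day 11 and day 32 differed beyond their spread, by 0.79 (adjusted p = 0.000448).

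Axin2 and Lgr5, both read as Wnt target genes, moved apart within the same RNA samples. The difference of their levels on an array, set to a mean of 0 at day 4, was between -1.17 and -0.64 at day 11. It was between 0.64 and 0.94 at day 24 and between 0.43 and 0.89 at day 32. The arrays of day 11 and those after weaning did not overlap. These values rest on the same measurements as the tests of each gene and were given no test of their own.

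Olfm4 encodes a secreted glycoprotein of crypt-base cells, a stem cell marker in human crypts that is expressed more widely in mouse crypts. It was 9.82, 9.46 and 9.79 at day 4, 9.90, 9.82 and 9.61 at day 7, 10.19, 10.17 and 10.33 at day 9, and 10.13, 10.36 and 10.40 at day 11. The mice of day 24 had 10.96, 10.93 and 10.23 and those of day 32 10.53, 10.75 and 10.42. Days 9 and 11 lay wholly above days 4 and 7, and 1 mouse of day 24 lay among those of day 11. Between days 4 and 11 alone, 21.1% of all genes tested had no overlap. The level after weaning was 0.64 ± 0.10 above that before, or 1.56-fold (limma, adjusted p = 1.96e-05).

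The steps within that course were less firm. From day 4 to day 11 the Olfm4 difference was 0.61 ± 0.17 (adjusted p = 0.0584), which passed under quantile normalization (adjusted p = 0.0477), cyclic loess (0.0463), array weights (0.00529) and robust variance estimates (0.0446). From day 11 to day 24 it was 0.41 ± 0.17 (adjusted p = 0.0430). That call was lost with no level filter, quantile normalization, only the arrays compared or Xist as a covariate (adjusted p up to 0.111), and epithelial marker centring turned the value to -0.0273 (adjusted p = 0.886). It was also lost without day 7 replicate 2, day 9 replicates 1 or 2, day 11 replicates 1 or 2, or day 24 replicates 1 or 2, with values of 0.28 to 0.44, whereas without day 24 replicate 3 the difference was 0.65 and called. By mean the order was day 4 (9.69 ± 0.20), day 7 (9.78 ± 0.15), day 9 (10.23 ± 0.09), day 11 (10.30 ± 0.14), day 32 (10.57 ± 0.17) and day 24 (10.71 ± 0.42), with no neighbours past the test. On values centred on the 12 epithelial markers of each array, the difference after weaning was 0.16 (adjusted p = 0.134).

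Cdca7, a Myc-responsive gene linked to cell division and part of published stem cell signatures, moved least of the 5. Its means rose from 7.31 ± 0.13 at day 4 to 7.56 ± 0.08 at day 11, 7.70 ± 0.39 at day 24 and 7.66 ± 0.05 at day 32, and single mice lay between 7.16 and 8.08. The level after weaning was 0.24 ± 0.10 above that before, or 1.18-fold (limma, adjusted p = 0.0350). This call was lost on leaving out any of 8 arrays (day 4 replicate 2, day 7 replicate 3, day 9 replicate 2, day 11 replicate 1, day 24 replicates 1 or 2 and day 32 replicates 1 or 3). The values over all such fits ran from 0.14, without day 24 replicate 2, to 0.34, without day 24 replicate 3. With epithelial marker centring the sign turned, to -0.24 (adjusted p = 0.0195), while the median of all genes moved from -0.07 to -0.55. On that scale 1070 genes were called higher and 6342 lower after weaning, against 2681 and 3611 on the deposited values.

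**Figure D3:**
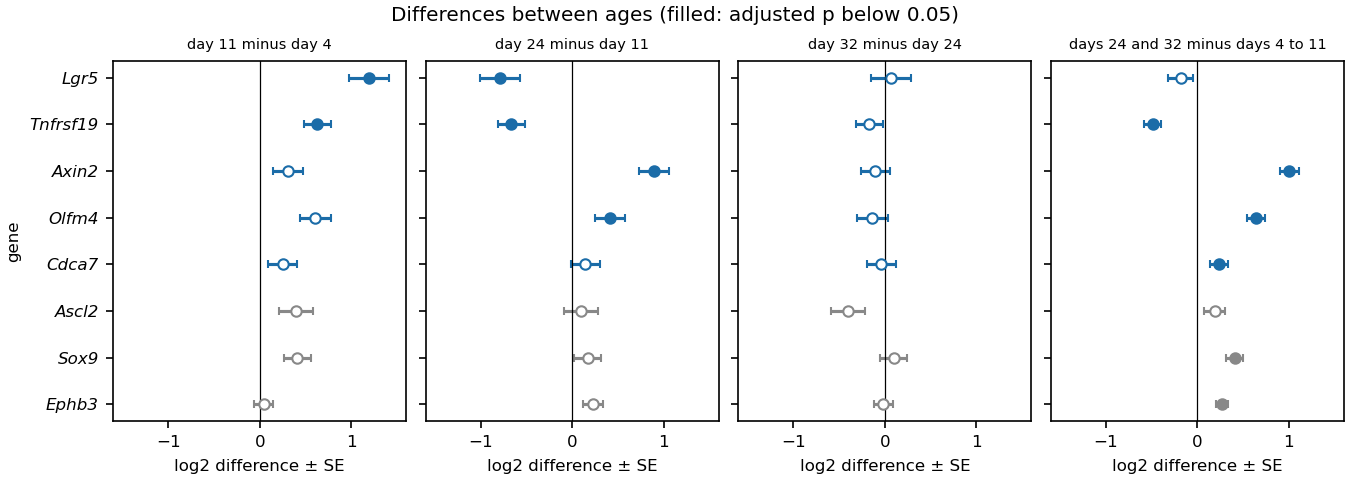
Log2 difference ± SE (limma, 12 residual degrees of freedom) of each member in 4 comparisons, with filled points where the adjusted p was below 0.05. Blue genes were in the fit of 8630 genes and grey genes come from a fit of 18193 genes with no level filter. Lgr5 and Tnfrsf19 lie to the right for day 11 minus day 4 and to the left for day 24 minus day 11, and Axin2 lies at 0.89 for the latter.

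By comparison, the 5 members read as follows. From day 4 to day 11, 2 were called, both higher, beside 2.89% of all genes tested and 1.34% called higher; 5 of 5 differences were above 0 with a median of 0.61, against -0.03 for all genes. The arrays of 4 of the 5 did not overlap between those ages, beside 21.1% of all genes. From day 11 to day 24, 2 were higher and 2 lower, beside 59.2% of all genes called, 26.9% higher and 32.3% lower. The arrays of 3 of the 5 did not overlap between days 11 and 24, beside 59.7% of all genes. From day 24 to day 32, 0 were called by limma, beside 12.3% of all genes, and 0 were at an unadjusted p below 0.05, beside 27.8% of all genes. After against before weaning, 3 were higher and 1 lower, beside 72.9% of all genes, 31.1% higher and 41.8% lower. Tnfrsf19 reached log2 6 on 6 arrays, all of days 7, 9 and 11. Its highest level was 5.85 at day 4 and 5.75 after weaning, and that of Lgr5 at day 4 was 5.80. The ages where Tnfrsf19 was high thus let it into these counts. With no level filter both were still called from day 4 to day 11 (limma, adjusted p = 0.0391 for Tnfrsf19, 0.00887 for Lgr5). In the fit over all 45037 probe sets, Tnfrsf19 missed that call (adjusted p = 0.0679).

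The rise before weaning could not be placed in any single step between neighbouring ages. Members called by limma numbered 0 from day 4 to 7, from day 7 to 9 and from day 9 to 11, where 0.0811%, 0.0463% and 0.0463% of all genes were called. At an unadjusted p below 0.05 they numbered 2, 1 and 0, beside 5.93%, 2.41% and 7.05% of all genes at that threshold. With array weights, an estimate that stopped before it converged, 2 calls appeared from day 7 to day 9, Lgr5 at 0.48 (adjusted p = 0.0473) and Olfm4 at 0.36 (adjusted p = 0.0455).

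The 3 dimmer members were fitted over all 18193 genes without the level filter, where 56.3% of genes were called after against before weaning. Epithelial marker centring, which moved the median of all genes tested from -0.07 to -0.55 in that comparison, was not applied to these 3. Ascl2 is the Wnt-dependent transcription factor that sets stem cell identity. Its single values ran from 5.10 to 6.41, with means of 5.55 ± 0.11 at day 4, 5.42 ± 0.17 at day 7, 5.67 ± 0.10 at day 9, 5.95 ± 0.02 at day 11, 6.04 ± 0.35 at day 24 and 5.64 ± 0.47 at day 32. The mice of day 11 lay within 5.93 to 5.96, whereas those of day 32 spread from 5.10 to 5.93. Its difference after weaning was 0.19 ± 0.11 (limma, adjusted p = 0.169) and that from day 4 to day 11 was 0.40 ± 0.19 (adjusted p = 0.390, beside 1.34% of genes called).

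Ephb3 encodes a receptor for B-type ephrins, which sort cells along the crypt axis. It ranged from 5.44 to 5.76 before weaning and from 5.75 to 5.93 after, with the mean 0.27 ± 0.07 higher (adjusted p = 0.00170). Whether Ephb3 kept this rise with epithelial marker centring was not tested. From day 4 to day 11 it differed by 0.04 ± 0.11 (adjusted p = 0.943). Its order by mean was day 9 (5.51 ± 0.09), day 7 (5.60 ± 0.15), day 4 (5.61 ± 0.14), day 11 (5.65 ± 0.09), day 32 (5.86 ± 0.09) and day 24 (5.87 ± 0.10), with no neighbours past the test.

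Sox9, a transcription factor of crypt progenitors and Paneth cells, had 2 probe sets, both above the array medians on every array, that went opposite ways. On 1451538_at, the one with the higher mean, levels ran from 4.79 to 5.78 before and from 5.59 to 5.88 after weaning, a difference of 0.41 ± 0.09 (adjusted p = 0.000871 without the level filter). On 1424950_at the difference was -0.44 ± 0.12 (adjusted p = 0.00528 in a fit over all 45037 probe sets, where 48.1% were called and 1451538_at had 0.00138). From day 11 to day 24 the latter fell by 0.76 ± 0.19 (adjusted p = 0.00598, beside 31% of probe sets called). Its highest value, 6.18, was that of day 11 replicate 1. The direction of Sox9 is therefore not settled by these arrays.

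Tnfrsf19 also had disagreeing probe sets, but only 1 of them stood clear of the array medians. The probe set 1425212_a_at, at a mean of 3.32 and so below those medians, differed by 0.41 ± 0.08 after weaning (adjusted p = 0.000237), against -0.49 for 1448147_at. For Axin2, the dim 1421341_at (mean 3.38) moved the same way as 1436845_at, by 0.46 ± 0.09 (adjusted p = 0.000494). For Lgr5, the dim 1444519_at (mean 3.39) changed by 0.23 from day 4 to day 11 and by -0.32 from day 11 to day 24, neither past the test (adjusted p = 0.681 and 0.101).

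**Figure D4:**
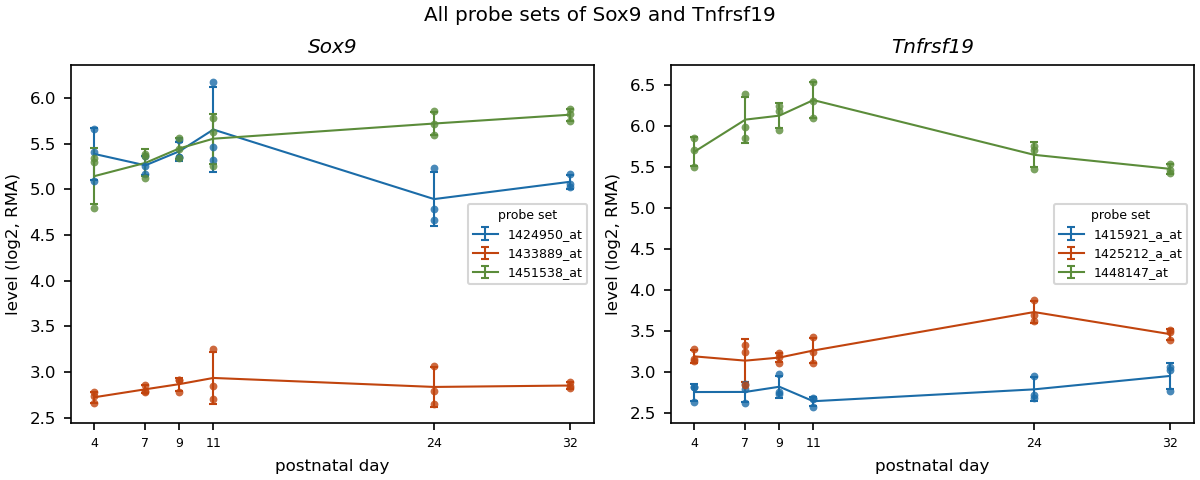
Log2 level (RMA) of all probe sets of Sox9 (left) and Tnfrsf19 (right) against postnatal day, with arrays as points and mean ± SD (n = 3 mice) as lines with bars. After day 11, 1424950_at of Sox9 falls while 1451538_at stays at or above 5.59, and the dim Tnfrsf19 probe sets stay at or below 3.87.

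Likeness between members was measured as the root mean square difference of their 6 age means, each gene centred on its own mean. Lgr5 and Tnfrsf19 were 0.24 apart and Axin2 and Olfm4 0.23, whereas Tnfrsf19 and Axin2 were the farthest pair at 0.71 and Lgr5 and Axin2 followed at 0.62. Cdca7 was within 0.10 of Sox9 and of Ephb3, all genes with small changes. Among the 8630 genes tested, the nearest to Lgr5 were Rbm5, Mamdc2 and Calb2, at 0.14 to 0.16. Those nearest to Axin2 were Atp6v0a2, Dtx3l and Aplp1, at 0.07, and to Olfm4 Abcg5, Pik3r1 and Nfe2l2, at 0.06 to 0.10. For Tnfrsf19 they were Trim12c, Ppp1r3c and Tent5a, at 0.07 to 0.08, and for Cdca7 Osbpl11, Pabpc1 and Ppp1r2, at 0.03 to 0.04. The median distance of all genes lay between 0.28 (from Cdca7) and 0.55 (from Axin2).

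Other genes of intestinal stem cell signatures moved in both directions. Of 11 tested, 5 rose and 4 fell after weaning (limma), with a median difference of -0.11 against -0.07 for all genes. The shares of all genes called in that comparison were 31.1% higher and 41.8% lower. Prom1, the pentaspan membrane protein CD133, rose by 2.30 ± 0.12, or 4.91-fold (adjusted p = 5.36e-12), and the water channel Aqp4 by 1.07 ± 0.22. Tert, the catalytic subunit of telomerase, went from 6.52 to 3.30, and since the latter is below the array medians the change of -3.22 has no firm size. From day 4 to day 11, 0 of the 11 were called, beside 2.89% of all genes.

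Of 10 other Wnt target genes tested, 5 rose and 4 fell after weaning, beside 31.1% of all genes called higher and 41.8% lower. Mmp7, a matrix protease that Paneth cells also make and that is among the Paneth markers above, rose from 6.95 to 10.52, a difference of 3.57 ± 0.11 (limma, adjusted p = 1.95e-15). Id2, an inhibitor of basic helix-loop-helix factors, differed by -2.01 ± 0.09, and Apcdd1, a membrane inhibitor of Wnt signalling, by -1.52 ± 0.13. From day 4 to day 11 the 1 gene called was Jun, at 0.67 ± 0.17 (adjusted p = 0.0439), a call lost on leaving out any of 9 arrays (0.49 to 0.87 over all such fits). Cd44 (0.68 ± 0.12) and Sox4 (0.64 ± 0.19) rose and Zfp703 fell (-0.44 ± 0.12) from day 24 to day 32, but the mean of the Sox4 probe sets gave -0.01. The Sox4 call was lost without day 24 replicates 1 or 3 or day 32 replicates 1 or 2 (0.48 to 0.66), and that of Zfp703 without day 24 replicates 2 or 3 or the same pair of day 32 (-0.44 to -0.38).

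Most ligands were too dim to follow: 12 of 21 genes of Wnt ligands and their export were at or below the array medians on every array, and 3 were tested. Wnt5a, a ligand of the mesenchyme that mostly signals without beta-catenin, rose from 5.77 to 6.50 between days 4 and 11 (0.74 ± 0.16, limma, adjusted p = 0.0162) and then fell to 4.63 at day 24 (-1.87 ± 0.16). The early rise missed the threshold without day 4 replicates 2 (0.60) or 3 (0.72) or day 11 replicates 1 (0.68) or 2 (0.69). Wnt5a was 0.61 ± 0.16 higher again at day 32 (adjusted p = 0.0179), a call lost without day 24 replicate 3 or day 32 replicates 2 or 3 (0.55 to 0.58) and on the mean of its probe sets (0.22). The fibroblast markers had the same order of days 4, 11 and 24, and the part of mesenchymal RNA in Wnt5a was not tested. After weaning Wnt4 differed by -0.41 ± 0.12 (adjusted p = 0.00541) and Wls, which carries Wnt proteins to the surface, by 0.34 ± 0.13 (adjusted p = 0.0317), but Wls turned to -0.14 with epithelial marker centring and lost its call on leaving out any of 8 arrays (0.28 to 0.42 over all such fits). With the hybridization sets as a block, Wnt4 was -0.31 (adjusted p = 0.104).

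Of 8 receptors and R-spondins tested, 2 rose and 4 fell after weaning, beside 31.1% of all genes called higher and 41.8% lower. Fzd5, a Frizzled receptor of the epithelium, rose by 1.38 ± 0.09, or 2.60-fold (limma, adjusted p = 1.60e-10), whereas Fzd4 (-2.05 ± 0.20) and Fzd1 (-0.99 ± 0.11) fell. Secreted and membrane antagonists fell: 3 of 4 tested after weaning and 4 of 4 from day 11 to day 24, with medians of -0.99 and -0.80, beside 41.8% and 32.3% of all genes called lower. Sfrp1, a secreted decoy for Wnt proteins, went from 7.98 to 6.17 after weaning (-1.81 ± 0.07) and fell again from day 24 to day 32 (-1.11 ± 0.11, adjusted p = 1.95e-06). Kremen1, a receptor of Dickkopf inhibitors, differed by -0.46 ± 0.08 after weaning. Its call from day 11 to day 24 (-0.34 ± 0.13, adjusted p = 0.0300), the last of the 4, was lost under quantile normalization (-0.21), median centring, the hybridization block (-0.28), the Xist covariate and only the arrays compared. It was also lost without day 11 replicate 2 (-0.26) or day 24 replicates 2 (-0.34) or 3 (-0.25). Only 4 of the 16 antagonists listed could be tested, so the share does not describe the family. Apcdd1 is counted both here and among the other Wnt target genes. All 10 fibroblast and mesenchyme markers tested were lower in both comparisons, and the part of such cells in the falls of these receptors and antagonists was not tested.

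Among intracellular components of the pathway, 2 of 21 genes tested rose and 12 fell after weaning, with a median of -0.30 against -0.07 for all genes. In the same comparison 31.1% of all genes were called higher and 41.8% lower. Tcf7l2, the main Tcf factor of the intestinal epithelium, rose from 4.03 to 6.20 (2.17 ± 0.13, limma, adjusted p = 6.02e-11), the earlier level being near the array medians, and the beta-catenin cofactor Bcl9l rose by 0.97 ± 0.10. Bcl9l too had a mean below log2 6 before weaning (5.55), so the levels of both genes after weaning may have let them into this count. Tnks2, a tankyrase that marks Axin proteins for degradation, fell by 0.86 ± 0.06, from 10.13 to 9.27 (adjusted p = 4.80e-10). From day 24 to day 32 Tle1 (-0.78 ± 0.18), a corepressor, and Bcl9l (-0.60 ± 0.16) fell. Without day 32 replicate 2 neither passed (-0.67 and -0.59), and Bcl9l also missed without day 24 replicates 1 (-0.56) or 3 (-0.43) or day 32 replicate 1 (-0.59).

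Of 13 Notch pathway genes tested, 4 rose and 8 fell after weaning, beside 31.1% of all genes called higher and 41.8% lower. Atoh1, the transcription factor of secretory cells that Notch signalling holds down, rose by 2.19 ± 0.11, or 4.57-fold (limma, adjusted p = 3.39e-12), while Notch3 (-1.65 ± 0.13) and the ligand Jag1 (-1.12 ± 0.08) fell. The part of mesenchymal and endothelial RNA in the falls of Notch3 and Jag1 was not tested. Among 7 ephrins and Eph receptors tested, 4 rose and 1 fell, beside the same shares of all genes, with a median of 0.59 against -0.07. Epha1 rose by 1.57 ± 0.11, Efnb1, a ligand of EphB receptors, by 0.85 ± 0.09 and Epha2 by 0.80 ± 0.09, and Epha1 fell by 0.89 ± 0.18 from day 24 to day 32 (adjusted p = 0.00392).

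**Figure D5:**
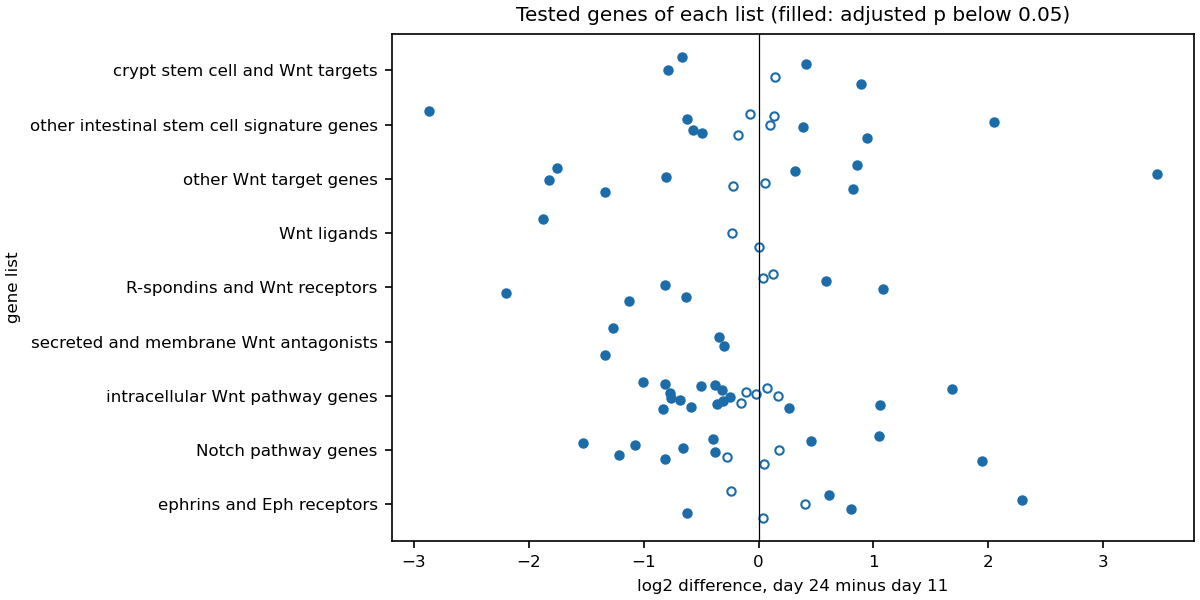
Log2 difference, day 24 minus day 11, of every tested gene in the members' list and 8 pathway lists, one point per gene and filled where the adjusted p was below 0.05. Points are spread vertically only to separate them. Antagonists all lie below 0, and 13 of the 21 intracellular genes were called lower against 3 higher. Of all genes tested, 32.3% were called lower and 26.9% higher.

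Over all these lists, 153 genes besides the members were listed and 76 tested. By limma, 60 of the 76 were called after against before weaning, 2 from day 4 to day 11, 55 from day 11 to day 24 and 8 from day 24 to day 32. The shares of all genes called in the same comparisons were 72.9%, 2.89%, 59.2% and 12.3%. Some of these genes had a mean below the filter level of log2 6 on one side of weaning. Among them were Epha1 (5.38 before, 6.96 after) and Epha2 (5.51, 6.31). The reverse held for Tert (6.52, 3.30), Apcdd1 (6.99, 5.48) and Notch3 (6.50, 4.85). Ages where such genes were high may thus have let them into these counts. Epithelial marker centring takes the same value off every gene on an array, so all differences after weaning moved down alike. Rises therefore became smaller and falls larger by construction, and 6342 of 8630 genes were called lower. On that scale Aqp4 was at 0.59, Bcl9l 0.49, Efnb1 0.37, Epha2 0.33 and Fzd5 0.90, all still called. Kremen1 was at -0.94, Wnt4 at -0.88 and Tnks2 at -1.34, where a kept call adds nothing.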

How the data were processed

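The authors deposited 1 log2 value for each probe set and array. They used RMA, per the submitters' processing notes, which subtracts background, equalises the arrays' distributions and summarises each set of probes. Array scans, version and options were not used here, and the values carry no detection calls. Precision is limited by the number of arrays and the signal over background. The array controls that moved with age and the disagreeing probe sets described above are further limits. cDNA was primed from poly-A tails, per the labels' protocols. Of 45101 probe sets, 64 were controls; the annotation gave 34945 a single symbol and 932 several, which were left out, and 34754 matched GRCm38.p6 by Entrez identifier.

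A gene took the probe set with the highest mean among those reaching log2 6 on at least 3 arrays. limma 3.58.1 in R 4.3.3 (lmFit, eBayes) fitted age as a factor over all 18 arrays, leaving 12 residual degrees of freedom and a median residual SD of 0.176. p-values were adjusted by Benjamini-Hochberg over 8630 genes and called below 0.05. The script was tested on simulated data. Like genes were the 3 nearest by age means; pathway genes named were up to 3 called per list with the largest change. Members, lists and rules were chosen with earlier results of these data known. Alternatives were filters, probe-set means, normalizations, epithelial marker centring, variance options, hybridization control sets, the Xist level and each array left out. The hybridization set on its own was added after seeing the data.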

Additional observations from a re-analysis of the deposited data

How the results depend on the processing

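No paired analysis was possible because the labels give no replicate numbers shared between ages, apart from 1 number that a day 7 and a day 9 title have in common. Across 36 settings, 548 values of member differences kept their direction and side of the threshold, 32 lost the call, 8 gained it and 20 changed sign. Of the pathway genes named, 1543 values were unchanged in this sense, 71 lost the call and 2 changed sign. Causes were not tested, except that a stricter filter leaves fewer genes and fewer arrays leave less power.

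A filter at log2 8 left 2 members called in the F test, 2 after weaning, 0 from day 4 to day 11 and 2 from day 11 to day 24, and 24, 1, 21 and 3 pathway genes in the 4 comparisons of after against before, day 11 against 4, 24 against 11 and 32 against 24. Without a filter 102 of the 153 listed pathway genes, not all with a probe set, were called after weaning, beside 56.3% of the 18193 genes in that fit. No such share is given here for the filter at log2 8 or for array weights, so those counts describe the setting and not the pathway. From day 4 to day 11 the members called were 1 with epithelial marker centring, 0 with only the arrays compared, and 1 to 3 on leaving out an array. Pathway genes called there were 1 with the mean of probe sets, median centring, epithelial centring or Xist as a covariate, 9 with array weights, 0 with only the arrays compared, 4 with the hybridization sets as a block, and 0 to 3 on leaving out an array. From day 24 to day 32 they were 5 with only the arrays compared and 3 to 10 on leaving out an array, the lowest without day 32 replicate 2. Array weights called 2 members in steps between adjacent suckling ages.

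Epithelial centring turned Cdca7 to -0.24 after weaning and -0.30 from day 11 to day 24, Olfm4 to -0.0273 from day 11 to day 24, and Wls to -0.14. Changes of sign from day 24 to day 32, where no member was called, were Cdca7 to 0.0115 with the Xist covariate and 0.151 without day 24 replicate 2, Axin2 to 0.0024 and 0.0948 without day 24 replicate 2 or day 32 replicate 1, and Lgr5 to -0.0393 and -0.0288 without day 24 replicate 3 or day 32 replicate 2. Cdca7 from day 11 to day 24 was -0.0491 without day 24 replicate 2. Over all such fits Cdca7 ran from -0.0491 to 0.343 from day 11 to day 24 and from -0.242 to 0.151 from day 24 to day 32, where Axin2 ran from -0.239 to 0.0948 and Lgr5 from -0.0393 to 0.168. Sox4 from day 24 to day 32 was -0.0094 with the mean of its probe sets. Of the dimmer probe sets, 1415921_a_at of Tnfrsf19 gave 0.13 after weaning, -0.11 from day 4 to day 11, 0.14 from day 11 to day 24 and 0.16 from day 24 to day 32. 1425212_a_at gave 0.41 after weaning and 0.47 from day 11 to day 24, 1444519_at of Lgr5 -0.0207 from day 24 to day 32, and 1445681_at of Cdca7 -0.0737 after weaning, -0.15 from day 11 to day 24 and 0.14 from day 24 to day 32.

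In the higher hybridization set alone, an alternative chosen after seeing the data, Axin2, Olfm4 (0.88) and Cdca7 (0.40) stayed called after weaning and Tnfrsf19 did not (-0.41, adjusted p = 0.0534). Lgr5 (-0.23) was not called there, nor was it in the main fit. Levels near the array medians limit Tert, Tcf7l2 before weaning and the dim probe sets, whose fold changes depend on the background correction.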
